A study of Rattus norvegicus with 6 samples.

Results

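Cytochrome P450 genes encode haem-containing enzymes that insert an oxygen atom into their substrates. They were defined as the genes whose array probe had a single symbol made of Cyp and a number in the platform annotation. The vitamin D hydroxylases Cyp27b1 and Cyp24a1 were not included. The rule took 46 probes of 45 genes, out of 5990 named genes and 26857 probes in all, and the brighter probe stood for Cyp4a8, the 1 gene with more than 1 probe. Levels were measured in rat kidney transplants taken on day 100 after surgery. The 3 tolerated grafts were LEW.1W kidneys (MHC haplotype RT1u, 8 to 12 weeks old) in LEW.1A recipients (RT1a) that had received antibodies to donor MHC class II to induce tolerance, and whose own kidneys were removed on day 7. The 3 syngeneic grafts were LEW.1A kidneys in LEW.1A recipients, for which the labels name neither an antibody nor a day on which the recipients' kidneys were removed. Both strains share their genes outside the MHC, the region of the transplantation antigens. The labels also give no donor age for the syngeneic grafts. What haplotype, mismatch and antibody each did cannot be told apart, since all of them separate the groups. The same holds for kidney removal and donor age if the groups differed in them, which the labels do not say. Each graft gave 1 array, and the labels number the grafts without saying that each came from its own animal, so the p-values cover only the spread seen between these 6 arrays, which may be technical.

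P450 enzymes are named by sequence: a number for the family, a letter for the subfamily and a number for the gene. Most lie in the endoplasmic reticulum and take electrons from P450 oxidoreductase, encoded by Por, while a few lie in mitochondria and take them from ferredoxin, encoded by Fdx1. In the kidney, P450 enzymes of the proximal tubule turn arachidonic acid into epoxides and hydroxy acids that act on salt transport and vessel tone. Enzymes of the liver type clear drugs and steroids, and others build cholesterol and bile acids, make steroid hormones or degrade retinoic acid.

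Of the 45 genes, 36 were bright enough to be tested, and 16 passed the test between tolerated and syngeneic grafts (adjusted p under 0.05, limma). That is 44.4% of those tested, against 25.2% of all tested probes. Lower in tolerated grafts were 14 genes, where 12.8% of all tested probes and 17.2% of 4955 tested named genes were lower, and 2 genes were higher, where 12.4% of all tested probes were. Of all called probes 49.1% were higher, and 37.5% with arrays scaled to equal medians, where 14 P450 genes were lower, with Cyp1a1 in the place of Cyp2f4, and 1 was higher. The genes that fell belonged to subfamilies 2C, 2D, 2E, 2F, 2J, 2T, 4A, 4F and 8B, and Cyp51 and Cyp27a1 rose. The median log2 fold change of all 45 genes was -0.80, against -0.02 over all probes, and it was -0.52 without syngeneic replicate 1. With each array left out in turn, 10 of the 14 genes that fell passed in all 6 fits, while Cyp4a8 passed in 5, Cyp2t1 in 4, Cyp2d3 in 2 and Cyp2f4 in 1. No list test was made, and the share of genes called is a description. The 3 levels of tolerated grafts lay all below those of syngeneic grafts for 22 genes and all above for 6, and the groups overlapped for 17. Among tested genes 25 of 36 did not overlap, against 47.3% of all tested probes.

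**Figure D1:**
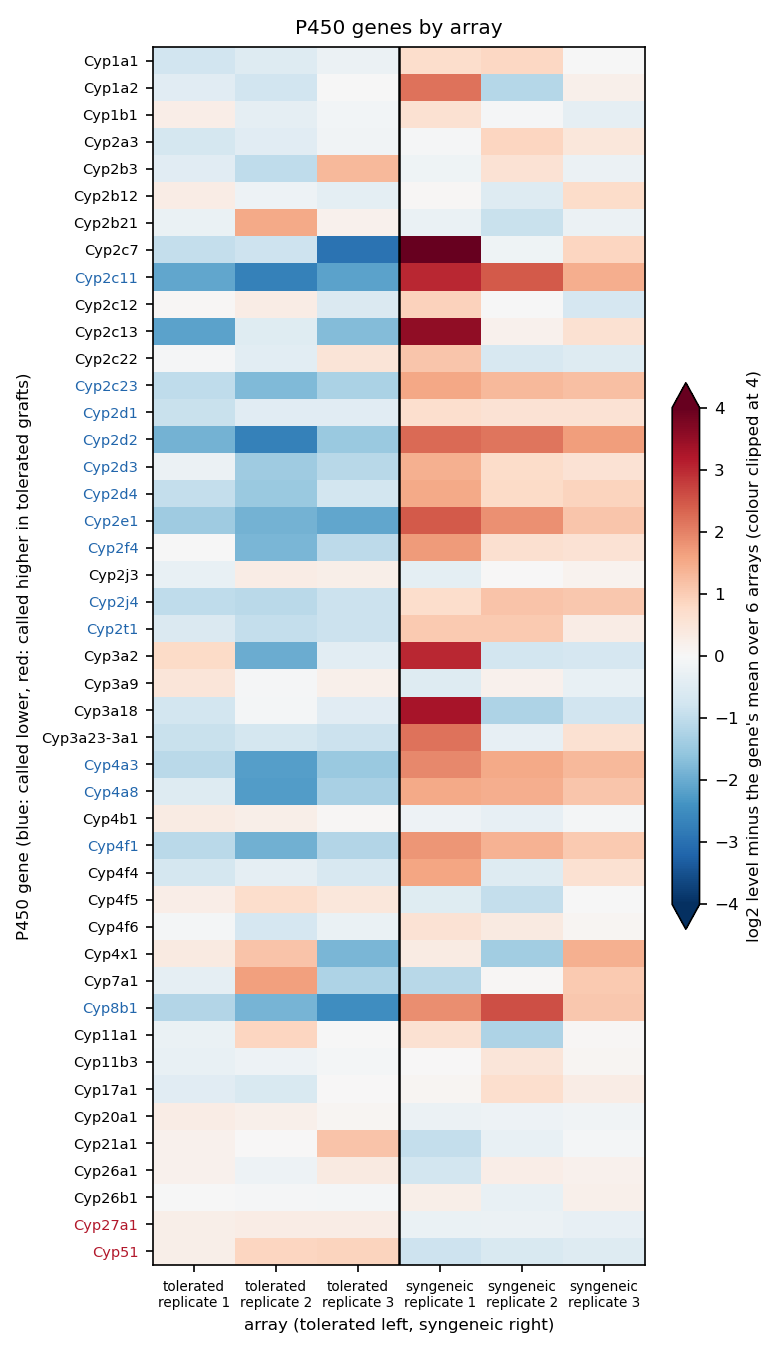
Heat map of all 45 P450 genes (rows) in the 3 tolerated (left) and 3 syngeneic arrays (right), coloured by the log2 level minus the gene's mean over 6 arrays, with names in blue for the 14 genes called lower and in red for the 2 called higher. The 14 rows in blue are all lower on every tolerated array than on every syngeneic array. Several tested genes that were not called, Cyp2c7, Cyp2c13, Cyp3a18 and Cyp1a2 among them, are highest in syngeneic replicate 1. So are Cyp3a2 and Cyp3a23-3a1, which were not tested.

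Levels are log2 intensities after quantile normalization, where 1 unit is a factor of 2 in signal, and they can be set against each other only between arrays for 1 gene. Probes whose mean level lay under 7.76, the lower quartile of all probes, were not tested. Raw medians were 745 to 991 on tolerated and 421 to 707 on syngeneic arrays, and arrays correlated at 0.948 to 0.967 inside a group and at 0.878 to 0.945 across groups. Kidney markers were detected as the tissue label says. All 18 markers of the proximal tubule were lower in tolerated grafts (median log2 fold change -3.04), while none of 11 markers of the distal nephron passed the test (median -0.37). All 9 markers of macrophages and dendritic cells were higher (median 3.04), as were 5 of 8 tested T cell markers and 1 of 2 B cell markers. Syngeneic replicate 3 lay nearest the tolerated arrays in these, with a mean macrophage marker level of 14.2, against 12.5 and 12.7 on syngeneic replicates 1 and 2 and 16.2 to 16.4 on tolerated arrays. Without syngeneic replicate 3, 14 P450 genes were lower, without Cyp2f4 and with Cyp1a1, and 3 were higher, with Cyp4f5. Of all tested probes, 2996 were then lower and 3050 higher, against 2585 and 2490 with all arrays. In these bulk samples, fewer cells of a type and less RNA per cell cannot be told apart, and the part of cell composition in the P450 changes was not tested.

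The arachidonic acid enzymes of the 2C, 2J, 4A and 4F subfamilies held genes that fell and genes that did not. Cyp2c23, the main arachidonic acid epoxygenase of the rat kidney, had levels of 17.78, 17.02 and 17.52 in tolerated grafts, against 20.34, 20.10 and 20 in syngeneic grafts. Its groups lay more than 2 units apart with little spread inside either. It was 6.53-fold lower (95% confidence interval 4.31 to 9.88, adjusted p = 0.00412). Cyp4a3, a fatty acid omega-hydroxylase that makes 20-HETE, a lipid that constricts vessels, had levels of 16.87, 15.75 and 16.47 in tolerated grafts, against 19.88, 19.46 and 19.25 in syngeneic grafts. It was 8.97-fold lower (5.04 to 16, adjusted p = 0.00528). No tolerated graft came near the syngeneic range. Cyp4a8, of the same subfamily, had levels of 14.35, 12.63 and 13.58 in tolerated grafts, against 16.40, 16.32 and 15.97 in syngeneic grafts. It was 6.55-fold lower (3.07 to 14, adjusted p = 0.0129), and the tolerated grafts differed among themselves more than the syngeneic ones did. Its second, dimmer probe had levels of 12.50, 11.14 and 11.63 in tolerated grafts, against 15.07, 15.07 and 14.08 in syngeneic grafts, with a log2 fold change of -2.99 (adjusted p = 0.0105). Both probes of the gene therefore passed the test in 1 direction, and tolerated replicate 2 was the lowest array on each.

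Cyp2j4 and Cyp2j3 encode arachidonic acid epoxygenases of 1 subfamily and are direct neighbours on rat chromosome 5, with 0 annotated coding genes between them. Cyp2j4 had levels of 11.01, 10.95 and 11.16 in tolerated grafts, against 12.72, 13.17 and 13.11 in syngeneic grafts. It was 3.88-fold lower (2.83 to 5.32, adjusted p = 0.00421), with a spread inside each group of at most 0.25 (SD, n = 3). Cyp2j3 had levels of 11.14, 11.74 and 11.66 in tolerated grafts, against 11.03, 11.43 and 11.56 in syngeneic grafts. The groups overlapped, and the log2 fold change of 0.17 ± 0.24 (SE) did not pass the test (adjusted p = 0.641), with a 95% interval of the fold from 0.745 to 1.70. Within arrays, the level of Cyp2j3 over Cyp2j4 was 2.13 log2 units higher in tolerated than in syngeneic grafts, with no overlap (exact permutation test p = 0.1, two-sided, the smallest that 3 against 3 arrays can give). Over the 28 pairs of tested genes within 7 subfamilies, 16 such differences had groups that did not overlap, and none could pass after adjustment (smallest adjusted p = 0.175). The share over pairs of other genes was not counted, and 47.3% of all single tested probes had groups that did not overlap.

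Cyp4f1, Cyp4f4, Cyp4f5 and Cyp4f6 encode fatty acid hydroxylases, and enzymes of this subfamily inactivate leukotriene B4, an attractant of neutrophils. Cyp4f1 had levels of 14.42, 13.58 and 14.34 in tolerated grafts, against 17.29, 16.89 and 16.56 in syngeneic grafts. It was 6.96-fold lower (4.09 to 11.8, adjusted p = 0.00566). Its neighbour Cyp4f6, with 0 coding genes between, had levels of 10.52, 9.92 and 10.31 in tolerated grafts, against 11.18, 10.93 and 10.67 in syngeneic grafts. The groups did not overlap, but the log2 fold change of -0.68 ± 0.23 did not pass (adjusted p = 0.0838). Cyp4f4 had levels of 7.59, 7.92 and 7.64 in tolerated grafts, against 9.86, 7.77 and 8.90 in syngeneic grafts. Its syngeneic arrays spread over 2 units and reached into the tolerated range, and its log2 fold change of -1.13 ± 0.52 did not pass (adjusted p = 0.171). Cyp4f5 lay the other way, with levels of 11.07, 11.52 and 11.27 in tolerated grafts, against 10.33, 9.84 and 10.78 in syngeneic grafts. The groups did not overlap, and the log2 fold change of 0.97 ± 0.28 missed the threshold (adjusted p = 0.0541). Within arrays, Cyp4f1 over Cyp4f5 was 3.77 log2 units lower in tolerated grafts (difference -3.77, exact permutation p = 0.1, adjusted p = 0.175 over the 28 pairs).

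The 250 bases before the annotated start are shown for 4 of these genes, because Cyp2j4 and Cyp2j3, and Cyp4f1 and Cyp4f5, are pairs of relatives with unlike values. Sequences are from RefSeq (assembly GRCr8), 5′ to 3′ on the gene's strand. Capitals mark an E-box in Cyp2j4 and the AHR-ARNT core in Cyp4f1, on the opposite strand, and in Cyp4f5.
Cyp2j4, chr5:116323043-116323292, minus strand: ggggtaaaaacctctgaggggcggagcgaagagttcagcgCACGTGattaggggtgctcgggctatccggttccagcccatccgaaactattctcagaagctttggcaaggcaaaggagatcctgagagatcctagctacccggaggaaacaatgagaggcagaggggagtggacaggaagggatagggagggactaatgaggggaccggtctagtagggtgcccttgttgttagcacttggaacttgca
Cyp2j3, chr5:116360500-116360749, minus strand: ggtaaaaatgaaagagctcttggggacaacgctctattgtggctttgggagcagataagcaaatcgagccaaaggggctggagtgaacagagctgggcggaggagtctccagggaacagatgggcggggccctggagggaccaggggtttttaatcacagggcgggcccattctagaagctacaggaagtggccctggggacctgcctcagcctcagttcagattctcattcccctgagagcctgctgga
Cyp4f1, chr7:12672554-12672803, minus strand: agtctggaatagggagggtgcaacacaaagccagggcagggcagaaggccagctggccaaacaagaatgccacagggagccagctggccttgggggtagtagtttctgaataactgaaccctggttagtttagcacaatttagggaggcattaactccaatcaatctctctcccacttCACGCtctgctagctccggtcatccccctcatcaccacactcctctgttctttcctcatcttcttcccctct
Cyp4f5, chr7:12194387-12194636, plus strand: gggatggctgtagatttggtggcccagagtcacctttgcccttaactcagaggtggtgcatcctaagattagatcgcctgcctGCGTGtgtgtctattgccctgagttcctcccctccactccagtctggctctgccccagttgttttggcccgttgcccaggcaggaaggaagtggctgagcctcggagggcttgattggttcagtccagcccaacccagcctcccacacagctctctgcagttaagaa
Windows were found for 40 of the 45 genes, and 5 motifs were searched in them on both strands, beside 27457 windows of all genes. The AHR-ARNT core GCGTG was in 10 genes (25%, against 27.2% of all). The E-box CACGTG was in Cyp2j4 and Cyp3a23-3a1 (5.0%, against 5.79%). The HNF4A motif CAAAGTCCA was in Cyp3a2 and Cyp3a23-3a1 (5.0%, against 0.331%), both too dim to be tested, and in Cyp3a23-3a1 it overlaps the E-box. These 2 genes belong to 1 subfamily and are direct neighbours, with 0 coding genes between them. Of the 14 genes called lower, 0 had the HNF4A motif. The CEBP motif TTGCGCAA and the SREBP motif TCACNCCAC were in none of the 40, and in 0.164% and 0.976% of all windows. These are matches of letters in 1 window, not binding sites. Over the length of each alignment, gaps included, the windows of Cyp2j4 and Cyp2j3 were 50.8% identical and those of Cyp4f1 and Cyp4f5 45.7%. Cyp2j4 against Cyp4f1, from different families, gave 45.4%.

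**Figure D2:**
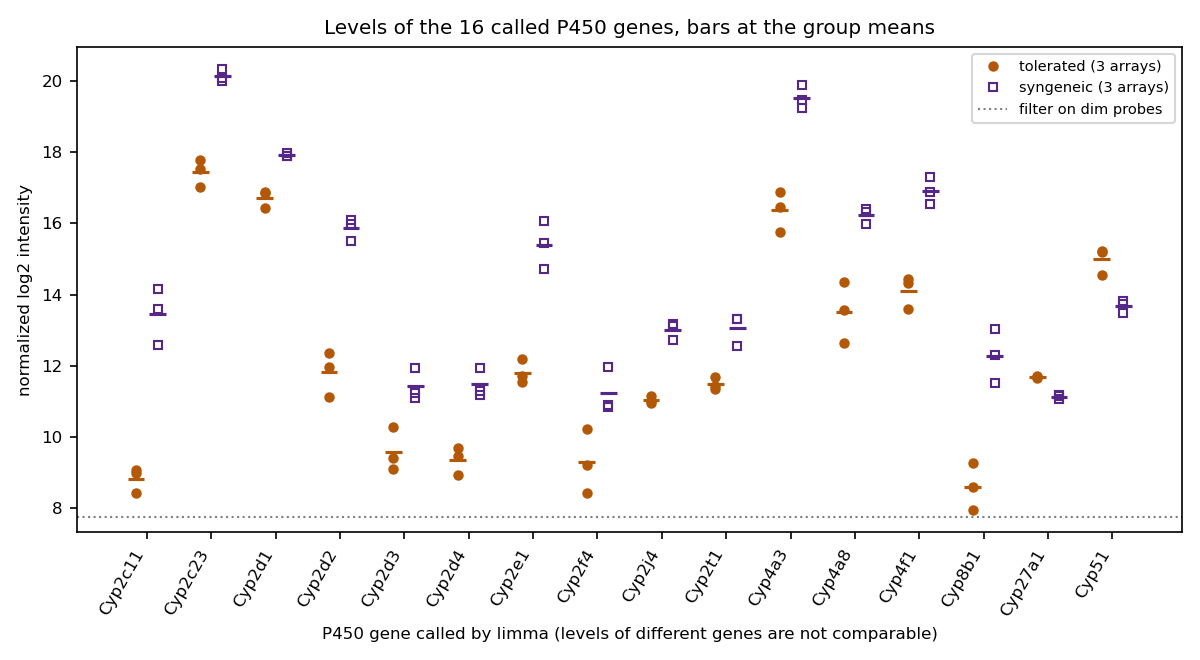
Normalized log2 intensity (vertical axis) of the 16 called genes, with filled circles for the 3 tolerated and open squares for the 3 syngeneic arrays, bars at the group means and a dotted line at the filter threshold of 7.76. Tolerated grafts lie below syngeneic grafts for the 14 genes called lower, without overlap, and Cyp2c11 and Cyp8b1 come nearest the threshold in tolerated grafts.

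The 2C subfamily, whose other members are best known from rat liver, held the largest fall and 2 genes with a wide spread among syngeneic arrays. Cyp2c11, the main P450 of adult male rat liver and also an arachidonic acid epoxygenase, had levels of 9.06, 8.43 and 8.99 in tolerated grafts, against 14.15, 13.60 and 12.58 in syngeneic grafts. It was 24.5-fold lower (11.7 to 51.3, adjusted p = 0.00421), the largest change of the 36 tested genes, and its tolerated levels lay within 2 units of the filter threshold. Cyp2c7 had levels of 7.90, 8.02 and 5.88 in tolerated grafts, against 12.88, 8.68 and 9.70 in syngeneic grafts. Syngeneic replicate 1 stood apart from the other syngeneic arrays, and the log2 fold change of -3.16 ± 1.2 did not pass (adjusted p = 0.108). Cyp2c13, a male-specific form of rat liver, had levels of 7.13, 8.81 and 7.55 in tolerated grafts, against 12.83, 9.46 and 9.90 in syngeneic grafts. Here too syngeneic replicate 1 was the high array, and the log2 fold change of -2.90 ± 0.98 did not pass (adjusted p = 0.0800). Without that array the log2 fold changes were -1.96 for Cyp2c7 and -1.89 for Cyp2c13, and neither passed. Cyp2c22 had a log2 fold change of 0.02 ± 0.54, and Cyp2c12, the female-specific form of rat liver, was too dim to be tested.

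All 4 measured genes of the 2D subfamily, enzymes that hydroxylate debrisoquine and other basic drugs, fell. Cyp2d2 had levels of 11.96, 11.13 and 12.36 in tolerated grafts, against 16.10, 15.97 and 15.50 in syngeneic grafts. It was 16.5-fold lower (8.95 to 30.4, adjusted p = 0.00406). Cyp2d1 had levels of 16.43, 16.86 and 16.87 in tolerated grafts, against 17.99, 17.89 and 17.88 in syngeneic grafts. It was 2.30-fold lower (1.68 to 3.14, adjusted p = 0.0109), the smallest fall of the 14, with groups that still lay about 1 unit apart. Cyp2d4, the member known from rat brain, had levels of 9.48, 8.94 and 9.68 in tolerated grafts, against 11.95, 11.18 and 11.29 in syngeneic grafts. It was 4.33-fold lower (2.59 to 7.22, adjusted p = 0.00930). Cyp2d3 had levels of 10.27, 9.09 and 9.41 in tolerated grafts, against 11.93, 11.24 and 11.10 in syngeneic grafts. It was 3.55-fold lower (1.85 to 6.83, adjusted p = 0.0227), and its groups were separated by less than 1 unit at their nearest arrays. Cyp2d1, Cyp2d3 and Cyp2d2 are direct neighbours on rat chromosome 7, and 1 coding gene lies between Cyp2d4 and Cyp2d1. Within arrays, Cyp2d1 over Cyp2d2 was 2.84 log2 units higher in tolerated grafts, without overlap (exact permutation p = 0.1, adjusted p = 0.175). The groups overlapped for Cyp2d1 over Cyp2d3 (exact permutation p = 0.3) and Cyp2d3 over Cyp2d4 (0.5). Genes of this subfamily are alike in sequence, and how far a probe also binds a relative's RNA was not tested.

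Cyp2e1, which oxidises ethanol, acetone and other small molecules, had levels of 12.19, 11.71 and 11.54 in tolerated grafts, against 16.06, 15.44 and 14.72 in syngeneic grafts. It was 12.1-fold lower (6.31 to 23.2, adjusted p = 0.00524). Cyp2f4, known for the oxidation of naphthalene in rodent lung, had levels of 10.23, 8.42 and 9.21 in tolerated grafts, against 11.95, 10.91 and 10.85 in syngeneic grafts. It was 3.87-fold lower (1.54 to 9.73, adjusted p = 0.0477), and the gap between its nearest arrays was small beside the spread of the tolerated ones. It missed the threshold with arrays scaled to equal medians (adjusted p = 0.0507) and with no filter (0.0655). Its neighbour Cyp2t1 had levels of 11.69, 11.34 and 11.43 in tolerated grafts, against 13.33, 13.32 and 12.57 in syngeneic grafts. It was 3.00-fold lower (1.92 to 4.70, adjusted p = 0.0131), with syngeneic replicate 3 the lowest of its group. The remaining genes of family 2 were not called. Cyp2a3, with a log2 fold change of -0.85 ± 0.29, had groups that did not overlap, while the 3 genes of the 2B subfamily, Cyp2b3, Cyp2b12 and Cyp2b21, had log2 fold changes of -0.12, -0.18 and 0.95 and groups that overlapped.

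The sterol enzymes went both ways. Cyp8b1, the sterol 12-hydroxylase that makes cholic acid in liver, had levels of 9.26, 8.59 and 7.94 in tolerated grafts, against 12.31, 13.03 and 11.50 in syngeneic grafts. It was 12.9-fold lower (5.49 to 30.1, adjusted p = 0.00817), and its lowest tolerated array lay close to the filter threshold. Cyp51, the lanosterol demethylase of cholesterol synthesis, had levels of 14.56, 15.19 and 15.22 in tolerated grafts, against 13.49, 13.73 and 13.82 in syngeneic grafts. It was 2.48-fold higher (1.66 to 3.71, adjusted p = 0.0156), and the lowest tolerated array stayed above the highest syngeneic one. Cyp27a1, the mitochondrial sterol 27-hydroxylase, had levels of 11.65, 11.71 and 11.70 in tolerated grafts, against 11.15, 11.18 and 11.07 in syngeneic grafts. It was 1.47-fold higher (1.16 to 1.85, adjusted p = 0.0354), a small difference between tight groups. Neither increase was as stable as most of the falls: with 1 array left out in turn, Cyp51 passed in 2 of 6 fits and Cyp27a1 in 1 of 6, in each case with a positive fold change. Cyp27a1 also missed the threshold with arrays scaled to equal medians and with no filter. Cyp7a1, the rate-limiting enzyme of bile acid synthesis in liver, was too dim to be tested.

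**Figure D3:**
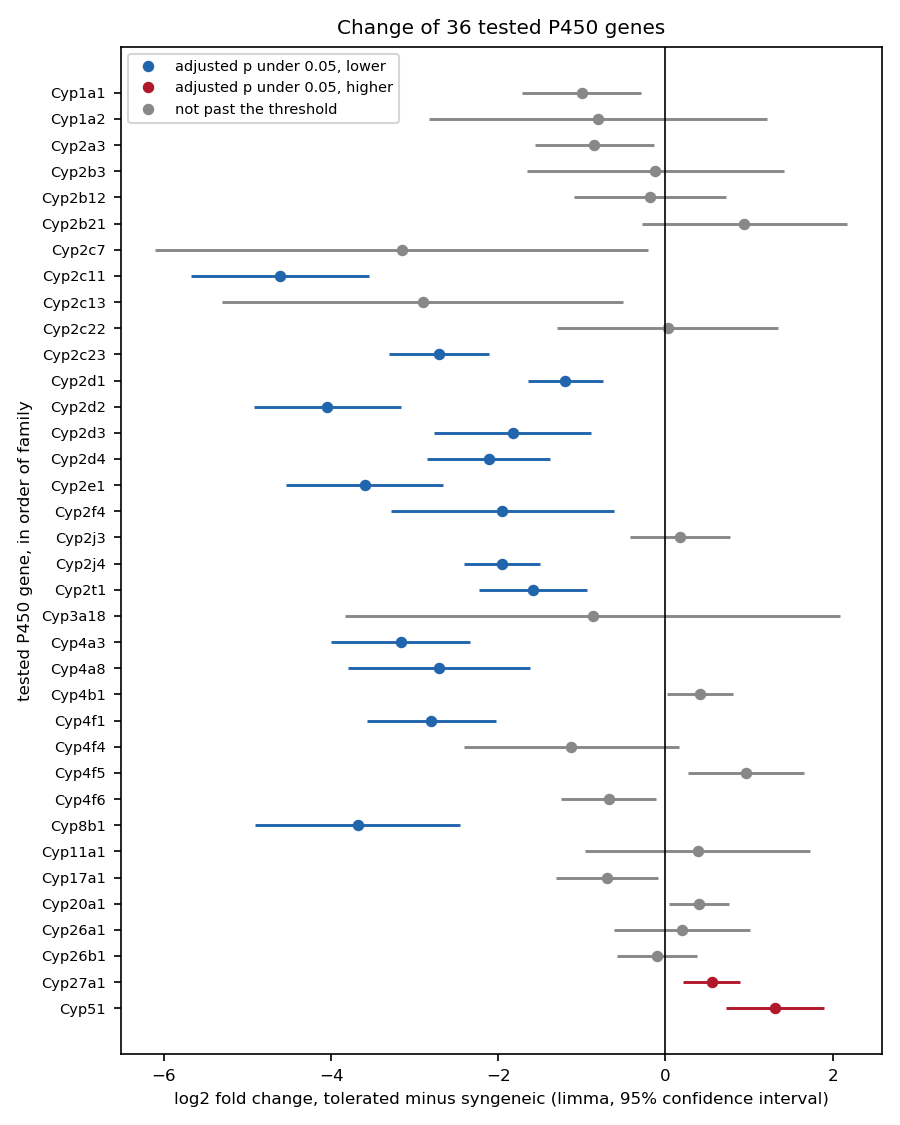
Log2 fold change, tolerated minus syngeneic (horizontal axis), of the 36 tested P450 genes in order of family, as points with 95% confidence intervals of the limma fit. Cyp2c11 lies lowest at -4.61 and Cyp51 highest at 1.31, and the intervals of Cyp2c7, Cyp2c13 and Cyp3a18 are the widest.

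No other P450 gene was called. Cyp1a1, which the aryl hydrocarbon receptor induces, had levels of 7.21, 7.47 and 7.75 in tolerated grafts, against 8.69, 8.80 and 7.96 in syngeneic grafts. The groups did not overlap, but the tolerated levels lay under the filter threshold, and the log2 fold change of -1.0 ± 0.29 missed the test (adjusted p = 0.0519). It passed with arrays scaled to equal medians (adjusted p = 0.0374), with cyclic loess (0.0475) and without syngeneic replicate 3 (0.0150). Cyp1a2, its neighbour, had a log2 fold change of -0.80 ± 0.82 with overlapping groups, and Cyp4b1 had one of 0.41 ± 0.16. Of the steroid hormone enzymes, Cyp11a1, which starts steroid synthesis from cholesterol, had a log2 fold change of 0.38 ± 0.55 and Cyp17a1, which makes androgens, one of -0.70 ± 0.25. Neither was called, and no marker of the adrenal cortex was called among 2 tested, Star and Hsd3b1. Cyp26a1 and Cyp26b1, which degrade retinoic acid, had log2 fold changes of 0.20 ± 0.33 and -0.10 ± 0.19, and Cyp20a1, an enzyme of unknown substrate, one of 0.40 ± 0.15. The levels of Cyp4b1 and Cyp20a1 in tolerated grafts lay all above, and those of Cyp17a1 all below, the levels in syngeneic grafts, while Cyp11a1, Cyp26a1 and Cyp26b1 overlapped. The 9 genes too dim to be tested had mean levels of 6.54 to 7.71. They were Cyp1b1, Cyp2c12, Cyp3a2, Cyp3a9, Cyp3a23-3a1, Cyp4x1, Cyp7a1, Cyp11b3 and Cyp21a1. Cyp3a23-3a1 had levels of 6.70, 6.89 and 6.75 in tolerated grafts, against 9.76, 7.27 and 8.22 in syngeneic grafts (difference -1.64, not tested). Cyp3a2 had levels of 8.48, 5.74 and 7.28 in tolerated grafts, against 10.73, 6.99 and 7.05 in syngeneic grafts (difference -1.09, not tested). Both are liver enzymes highest in syngeneic replicate 1. Cyp1b1, Cyp2c12, Cyp3a9, Cyp4x1, Cyp7a1 and Cyp11b3 differed by -0.38 to 0.44. Cyp21a1, the steroid 21-hydroxylase, is the 1 of the 45 genes known to lie in the MHC, where the donors of the 2 groups differ, and had levels of 7.81, 7.66 and 8.76 in tolerated grafts, against 6.67, 7.35 and 7.55 in syngeneic grafts. For 13 genes the mean of tolerated grafts lay under 7.76, but for none of the 16 called genes.

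Syngeneic replicate 1 differed from the other syngeneic arrays in liver-type genes. Among 23 measured markers of hepatocytes, 21 were higher on it than the mean of syngeneic replicates 2 and 3, by a median of 2.2 log2 units, against a median of 0.34 for the 18 proximal tubule markers. Alb, which encodes albumin, had levels of 7.70, 6.55 and 6.83 in tolerated grafts, against 17.66, 13.32 and 14.79 in syngeneic grafts, and 6 of the 23 markers, Alb among them, had a mean under the filter threshold in tolerated grafts. Of the 45 P450 genes, 6 stood more than 2 units higher on that array than the mean of the other syngeneic arrays. These genes, chosen after their values were seen, were Cyp3a18, Cyp2c7, Cyp3a2, Cyp2c13, Cyp1a2 and Cyp3a23-3a1. Cyp3a2 and Cyp3a23-3a1 were too dim to be tested, and Cyp3a18, Cyp2c7, Cyp2c13 and Cyp1a2 were tested and not called. The 3A enzymes are the main clearers of drugs and steroids in liver. Cyp3a18 had levels of 7.26, 7.92 and 7.54 in tolerated grafts, against 11.31, 6.78 and 7.25 in syngeneic grafts, so that its log2 fold change of -0.87 ± 1.2 came from 1 array. Of the 14 genes called lower, 13 were also higher on syngeneic replicate 1, with a median difference of 0.46. So were 16 of the 18 proximal tubule markers and 31 of all 45 P450 genes, and the share over all probes was not counted. A gene far higher on 1 of 3 syngeneic arrays has a spread that works against a call, so the calls and the difference on syngeneic replicate 1 are not independent. Between groups, 6 of 20 tested hepatocyte markers were lower in tolerated grafts and none was higher. The median log2 fold change of those tested was -1.88, from -8.23 for Alb, the most extreme, to 0.28 for Tat. The mean level of all 23 measured was 9.34, 9.10 and 9.12 on tolerated arrays, against 12.4, 10.4 and 10.6 on syngeneic arrays. Without syngeneic replicate 1, 12 P450 genes were lower and none higher. Of all tested probes, 1211 were then lower and 921 higher, against 2585 and 2490 with all arrays. Leaving out tolerated replicate 2 also left 12 P450 genes lower and 0 higher. The part of liver-type RNA in the other results was not tested.

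**Figure D4:**
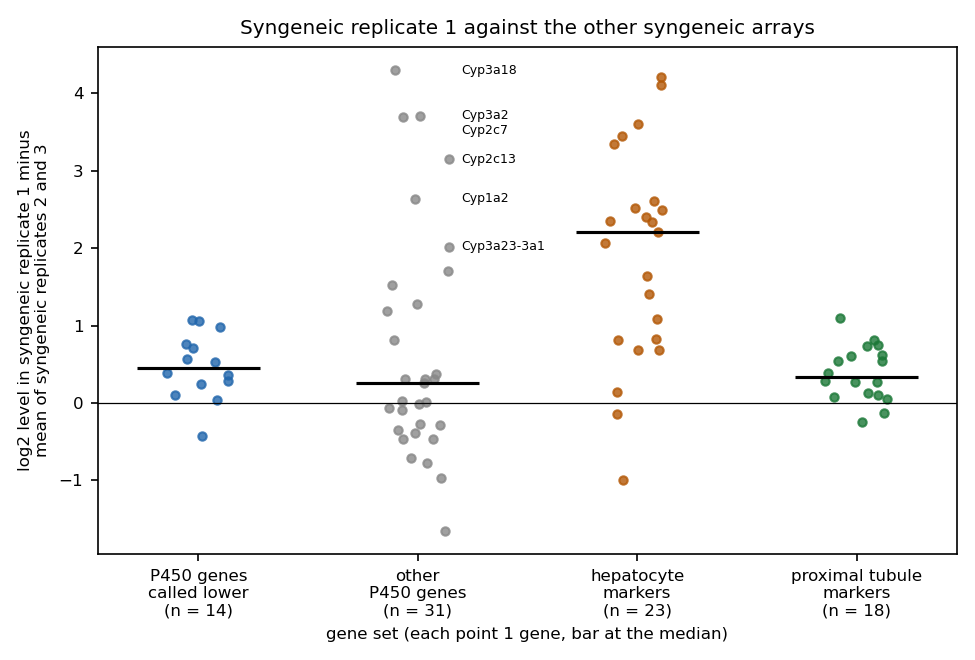
Log2 level on syngeneic replicate 1 minus the mean of syngeneic replicates 2 and 3 (vertical axis), with 1 point per gene and bars at the medians, for the 14 P450 genes called lower, the 31 other P450 genes, 23 hepatocyte markers and 18 proximal tubule markers. The 6 labelled P450 genes lie above 2, as many hepatocyte markers do, and the 14 called lower have a median of 0.46, where a large difference would itself work against a call.

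The falls were set beside those of the proximal tubule markers, whose mean level was 14.1, 13.7 and 14.1 in tolerated grafts, against 17.5, 17.4 and 16.9 in syngeneic grafts. Of the 14 P450 genes called lower, 5 fell by more than the markers' median of -3.04, namely Cyp2c11, Cyp2d2, Cyp8b1, Cyp2e1 and Cyp4a3, and 9 fell by less. Taken within each array relative to the markers' mean, 8 of the 14 were higher in tolerated than in syngeneic grafts without overlap, 2 were lower without overlap (Cyp2c11 by a difference of -1.33 and Cyp2d2 by -0.76), and 4 overlapped. On this scale 96.7% of all tested probes were higher without overlap and 0.501% lower, since the markers' own mean fell, and of the 22 tested P450 genes not called lower 19 were higher. For Cyp2c23 the difference was 0.58, for Cyp4f1 0.48 and for Cyp2d1 2.08. Each of these has an exact permutation p of 0.1, the smallest 3 against 3 arrays can give, so none can pass a threshold of 0.05.

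Genes that serve P450 enzymes fell in part. Counts in the following lists stand against 12.4% of all tested probes higher and 12.8% lower, with a median log2 fold change of -0.02. Of 7 tested redox partners, 4 were lower and none higher (median -0.89). Por had levels of 13.68, 13.72 and 13.73 in tolerated grafts, against 15.19, 14.87 and 14.05 in syngeneic grafts, and its log2 fold change of -1.0 ± 0.31 did not pass (adjusted p = 0.0651). Por passed with arrays scaled to equal medians (adjusted p = 0.0418), the filter at the median (0.0357) and trended, robust variances (0.0272). Fdx1 had levels of 16.08, 15.79 and 15.92 in tolerated grafts, against 16.92, 16.71 and 16.83 in syngeneic grafts. It was 1.85-fold lower (adjusted p = 0.0153). Fdx1 no longer passed without tolerated replicate 2 (adjusted p = 0.0536) or 3 (0.0593), or without syngeneic replicate 1 (0.0588) or 2 (0.0526). With the replicate block its adjusted p was 0.0566. Pgrmc1, a haem protein that binds P450 enzymes, was 2.97-fold lower (adjusted p = 0.00671) and Cyb5a, which encodes cytochrome b5, 2.82-fold lower (adjusted p = 0.00660).

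Of 10 tested arachidonic acid enzymes outside the Cyp genes, 2 were higher and 3 lower (median 0.01), beside the same 12.4% and 12.8% of all tested probes. Tbxas1, thromboxane synthase and itself of the P450 fold, had levels of 13.49, 13.07 and 13.28 in tolerated grafts, against 10.75, 10.24 and 11.41 in syngeneic grafts. It was 5.58-fold higher (adjusted p = 0.00771), beside macrophage markers that were also higher and whose part in it was not tested. Ephx2, the soluble epoxide hydrolase that removes the epoxides made by Cyp2c23 and the 2J enzymes, had levels of 13.20, 13.34 and 13.31 in tolerated grafts, against 16.23, 15.77 and 15.18 in syngeneic grafts. It was 5.44-fold lower (adjusted p = 0.00599). Ptgds, prostaglandin D synthase, was 6.49-fold lower (adjusted p = 0.00783). Cyp2c23 and Cyp2j4, which make epoxides, were lower as Ephx2 was, while Cyp2j3 was not called.

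Of 17 tested transcription factors known to act on P450 genes, 6 were lower and 1 higher (median -0.37), where 12.8% of all tested probes were lower and 12.4% higher. Hnf4a, a regulator of liver and proximal tubule genes, had levels of 11.14, 10.34 and 11.36 in tolerated grafts, against 14.15, 14.11 and 13.59 in syngeneic grafts. It was 8.03-fold lower (adjusted p = 0.00537), with no overlap. Tef and Dbp, clock-controlled factors, were 6.85-fold and 6.14-fold lower (adjusted p = 0.0109 and 0.0216), and syngeneic replicate 3 was the lowest of its group for both. Nr1i2, the pregnane X receptor that induces 3A genes, had levels of 11.05, 10.64 and 10.51 in tolerated grafts, against 13.10, 12.85 and 12.10 in syngeneic grafts. It was 3.86-fold lower (adjusted p = 0.0123), but did not pass without syngeneic replicate 2 (adjusted p = 0.0518). The hour of sampling is not stated in the labels, and its part in the values of clock-controlled genes was not tested.

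Of 15 tested genes of the cholesterol pathway, 1 was higher and 2 lower, against 12.4% and 12.8% of all tested probes. Pmvk was 1.91-fold higher (adjusted p = 0.0166), Sc5d and Fdft1 were each 2.13-fold lower (adjusted p = 0.0109 and 0.0294), and 12 were not called (median log2 fold change -0.08). Of 7 tested genes of retinoic acid handling, 2 were higher and 2 lower (median -0.41). Rdh16, a retinol dehydrogenase, had levels of 8.57, 8.24 and 9.59 in tolerated grafts, against 14.55, 14.71 and 13.95 in syngeneic grafts. It was 48.7-fold lower (adjusted p = 0.00363). Aldh1a2, which makes retinoic acid, was 2.91-fold higher (adjusted p = 0.0106), and Aldh1a1, which also makes it, 2.26-fold lower (adjusted p = 0.0403). Of 7 tested genes of steroid synthesis, 1 was higher and 3 lower, Fdx1 among them (median -0.56). Hsd17b1, which makes oestradiol, was 5.18-fold lower (adjusted p = 0.0150), Hsd11b1, which makes active glucocorticoid, 3.96-fold lower (adjusted p = 0.00716), and Scarb1, the receptor for high-density lipoprotein, 2.91-fold higher (adjusted p = 0.00589).

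**Figure D5:**
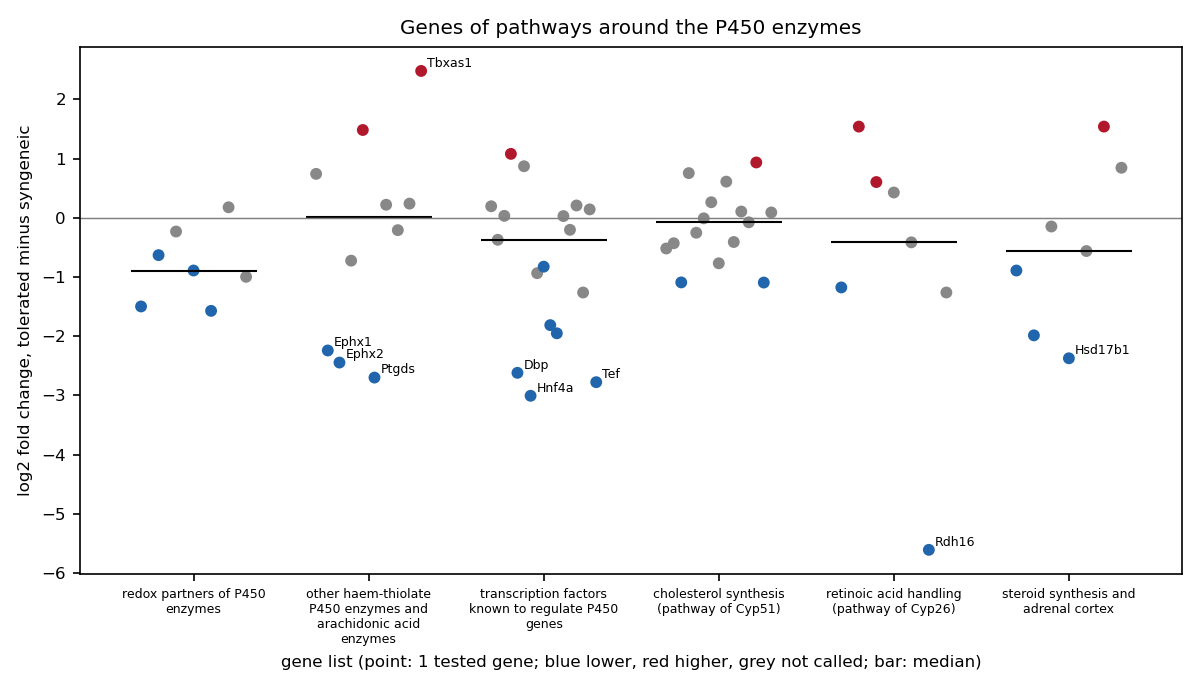
Log2 fold change, tolerated minus syngeneic (vertical axis), of the tested genes of 6 lists around the P450 enzymes, with blue points for genes called lower, red for higher and grey for not called, and bars at the list medians. The redox partners have the lowest median at -0.89, Rdh16 is the lowest gene at -5.61 and Tbxas1 the highest at 2.48.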

How the data were processed

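RNA from 6 kidney grafts was amplified from 0.5 µg, labelled with digoxigenin and hybridised to Applied Biosystems rat arrays, 1 array per graft, per the labels' protocols. The authors deposited raw probe intensity and, in a second table, log2 values that rank probes as the raw intensities do. The labels do not state the scanner software, background correction or detection calls. Samples were grouped by title. All value columns belonged to samples of the series (0 others).

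Intensities were taken to log2 and quantile normalized, and 20142 of 26857 probes with a mean above the lower quartile (7.76) were tested with limma 3.58.1 in R 4.3.3, tolerated minus syngeneic, two-sided. The threshold of 0.05 applies to p-values adjusted by Benjamini-Hochberg over every tested probe. Errors are standard errors of that fit and intervals its 95% intervals. The fit was tested on simulated data. The 6 arrays limit the precision. Genes were named from the platform annotation, in which 6104 probes had 1 symbol, 70 several and 20683 none. Of the single symbols, 6081 were found by gene number in the RefSeq gene table (GRCr8). Its symbol was then used, whether or not it differed. Of the probes with several symbols, 3 listed Cyp genes and are not named. Per gene the probe with the highest mean over 6 arrays was used. P450 genes that passed, or that differed by at least 1 log2 unit, are given with the level on every array. Others are given by their change, 5 of them (Cyp2j3, Cyp4f5, Cyp4f6, Cyp3a18 and Cyp21a1) with their levels after these were seen, and each pathway list by up to 3 members with the largest called change, plus Cyp51, Por, Fdx1 and Nr1i2. Genes between neighbours were counted in RefSeq, and promoter windows were aligned with Biopython 1.88. A comparison of the proteins was not made. A motif of the planned search is not reported here.

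The P450 genes, the lists and the tests were chosen with earlier results of these data known. The labels do not say that replicate numbers pair the grafts. Deviations of same-numbered arrays from their group means correlated at -0.0023, 0.0112 and 0.0538, and those of arrays with unlike numbers at -0.0383 to 0.0313. These values cannot settle whether the numbers pair the grafts. Alternatives were other normalizations, the deposited log2 values, background correction, an added 64 before log2, other filters, the replicate block, another variance model, the mean of a gene's probes and leaving out each array.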

Additional observations from a re-analysis of the deposited data

How the results depend on the processing

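Of the single-gene values for the 36 tested P450 genes under 16 alternatives, 505 kept their direction and side of the threshold, 27 kept the direction but no longer passed, 12 passed only there, and 11 changed sign, none of them a gene that had passed. Some alternatives could hardly differ: the deposited log2 values nearly repeat the main ones (2586 probes lower, against 2585). The mean of a gene's probes replaces the values of only Cyp4a8 among P450 genes. With arrays scaled to equal medians Cyp2c22 changed sign (-0.15). The other changes of sign came with 1 array left out, where log2 fold changes ranged from -0.30 to 0.61 for Cyp2c22 (negative without tolerated replicate 3, -0.22, or syngeneic replicate 2 or 3, -0.23), -0.27 to 0.34 for Cyp2b3 (positive without tolerated replicate 1, 0.09, tolerated replicate 2, or syngeneic replicate 2, 0.16), -1.63 to 0.072 for Cyp1a2 (positive without syngeneic replicate 1), -0.13 to 0.39 for Cyp26a1 (negative without syngeneic replicate 1), -0.14 to 0.79 for Cyp11a1 (negative without syngeneic replicate 2) and -0.50 to 0.15 for Cyp2b12 (positive without syngeneic replicate 3). With all arrays, 13 to 16 P450 genes were called lower: Cyp2f4 was lost with equal medians and with no filter, Cyp1a1 entered with equal medians and cyclic loess, and Cyp2c13 and Cyp4f6 with the filter at the median. The count called higher was 1 with equal medians or with no filter, 4 with the filter at the median and 5 with trended, robust variances. With equal medians the median log2 fold change of the P450 genes was -1.02 and that of all tested probes -0.15, against -0.02, and 1735 probes were higher and 2886 lower (37.5% higher, against 49.1%). The retinoic acid list had 2 called genes with no filter, and the cholesterol list 5 with the filter at the median or with trended, robust variances. The replicate block left 1 P450 gene higher and 13 lower, without Cyp27a1 and Cyp2d1, and of all probes 781 higher and 1105 lower; it left 0 called genes in the cholesterol list, 2 in the redox list and 2 in the retinoic acid list. The labels do not say that numbers pair the grafts, and a call lost under the block need not be a weaker effect. With each array left out in turn, 10 to 14 P450 genes were lower and 0 to 3 higher, the median log2 fold change was -0.87 to -0.52 (-0.52 without syngeneic replicate 1), and 983 to 2996 probes were lower and 627 to 3050 higher. Called list genes then numbered 1 to 3 for cholesterol, 2 to 5 for redox partners, 2 to 5 for retinoic acid, 2 to 4 for steroids and 2 to 8 for transcription factors. The lowest of each of these counts came without syngeneic replicate 2, in part also without other arrays. A dim gene has no value under alternatives whose filter left it out. The arachidonic acid list had 5 called genes with each array left out, and 6 with equal medians, background correction or an added 64 before log2. Without syngeneic replicate 3, 6046 probes were called in all, against 5075 in the main fit and 1610 to 2152 without any other array. Each fit with 1 array left out has fewer degrees of freedom than the main fit. Why the counts differ between these fits was not tested. Detection calls were not used here, so dim genes, and folds whose lower group is dim, are least certain, and quantile normalization would hide a change in total RNA per cell.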
